A study of Homo sapiens with 6 samples.

Results

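The genes described here make up the machinery that carries a secretory protein across the endoplasmic reticulum (ER), folds it and sends it on, read in 3 human myeloma cell lines. Of 56 listed genes, 53 had a probe set annotated to that gene alone, and the brightest such probe set by its mean over the 6 arrays stood for the gene. These 53 were 21 of 22 genes of translocation and signal peptide cleavage, 7 of 7 of oligosaccharyl transfer, 16 of 16 of folding, 6 of 7 of ER-associated degradation (ERAD) and 3 of 4 of export. SEC61G and KDELR2 had no probe set of their own in the annotation used here, and SYVN1 had only 1 that it shared with another gene, so no value is given for them. All 53 passed the limit on dim genes, among 12078 tested genes of 19775 named ones.

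A secretory protein is threaded through the Sec61 channel as it is made, loses its signal peptide to the signal peptidase, and receives a preassembled sugar chain from the oligosaccharyltransferase. Chaperones and disulfide isomerases then fold it, misfolded copies are pulled back to the cytosol and degraded by ERAD, and folded ones leave in COPII vesicles while escaped ER residents are returned by KDEL receptors. Plasma cells, and the myeloma cells that derive from them, run this pathway at a high rate because they secrete immunoglobulin, and the unfolded protein response (UPR) adjusts its genes to the load.

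ARP1, OCI-MY5 and OPM2 are established myeloma lines, grown untreated in serum-containing medium. Each was sorted by flow cytometry with an antibody to the surface protein CD24 into a CD24+ fraction, which the submitters call cancer stem cells, and a CD24- fraction. Total RNA of each fraction was hybridised to 1 Affymetrix U133 Plus 2.0 array, giving 6 arrays, 3 per fraction and 2 per line. The labels do not say whether sorts were repeated, so each fraction of each line rests on 1 array, and p-values measure only the spread between these arrays. In bulk RNA, fewer cells with a transcript and less of it per cell cannot be told apart.

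Intensities are linear MAS5 values, with a trimmed mean of 499.9 on each array as deposited, and differences are on the log2(intensity + 16) scale. Of the plasma cell markers, 10 of 10 passed the limit, at 257 to 152284, and of 5 genes each, 2 T cell, 3 myeloid, 1 stromal and 2 epithelial markers passed it too, with KRT18 at up to 409 and COL1A1 at up to 369. Summed intensities were 220 to 407 for 5 T cell, 200 to 816 for 5 myeloid, 337 to 603 for 5 stromal and 321 to 684 for 5 epithelial markers. The transcript of CD24 was dim on its brightest probe set, below the limit, at 29.0 to 99.2 in the CD24+ and 3.35 to 58.6 in the CD24- arrays, and in ARP1 it was lower on the CD24+ array (29.0 against 47.2), so the arrays do not check the sort. The OPM2 CD24+ array stood apart, with a spike-in mean of 37362 against 6175 to 7399 on the other arrays and a median intensity of 135 against 69.0 to 84.2. The ratio of 3′ to 5′ probe sets of ACTB, a sign of RNA degradation when high, stood at 2.63 and 2.47 for ARP1, 9.36 and 23.2 for OCI-MY5, and 27.1 and 7.54 for OPM2, in the order CD24+ and CD24-. The part of these differences in the results was not tested.

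The lines differed in these genes more than the fractions did. Line accounted for a median 84.4% of a member's sum of squares and fraction for 3.79%, against 77.5% and 4.76% over all tested genes. For the line contrasts, the 2 opposite sorts of each line stood in as its replicates. Their gap, pooled over the 3 lines and moderated by limma, gave each gene 1 spread. A gene's SE is therefore the same in all 3 contrasts. Unless the fraction is a term, any true difference between fractions counts there as error. Between lines, 18 of 53 members (34%) passed an adjusted p of 0.05 (limma, Benjamini-Hochberg over all tested genes) in at least 1 contrast, against 34.6% of all tested genes, so the members changed about as often as genes in general. Against ARP1, OPM2 was higher in 4 members, where 10.1% of all genes were called, and lower in 9, where 14.8% were. Against OCI-MY5, OPM2 was higher in 7 members (11.4% of all genes) and lower in 4 (14.7%). ARP1 was higher than OCI-MY5 in 2 members, CRELD2 and EDEM2 (1.78% of all genes), and lower in 0 (0.836%). The gap between a member's highest and lowest line means was 0.73 to 2.09 in the 18 called members (median 1.08). In the 35 others it ran from 0.093 for SEC61B to 1.45 for HSP90B1 (median 0.58), the latter with a wide gap between its own fractions.

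The steps had different medians, and differences between steps were not tested. The median difference of OPM2 from ARP1 was −0.06 for translocation, −0.29 for oligosaccharyl transfer, −0.63 for folding, 0.15 for ERAD and 0.62 for export, against −0.23 for all members and −0.04 for all tested genes. Centring the arrays moved the median of all genes in this contrast from −0.04 to 0.16, that of translocation to 0.14, and that of folding to −0.44. Over the 3 contrasts, 26 calls were made on members. Leaving out an array leaves its line with 1, and the spread then comes from the other 2 lines. Without the OPM2 CD24+ array these are ARP1 and OCI-MY5. Their median size of the fraction difference over all tested genes was 0.20 each, against 0.41 in OPM2. Keeping a call in that fit is therefore no check of it. Without the CD24+ or the CD24- array of ARP1, 13 and 12 of the 13 calls against ARP1 were lost, and without either OCI-MY5 array all 11 calls of OPM2 against OCI-MY5 were lost. Both calls of ARP1 against OCI-MY5 were lost without any 1 of these 4 arrays. With the fraction as a term, which blocks the arrays by fraction, 16 of the 26 calls were kept, and 20 were when every probe set of a gene was averaged. Every one of the 26 calls kept its direction under every alternative run. The limits on dim genes, the intensity trend and the fraction term leave a difference as it is and cannot turn it. Where it could move, HERPUD1 in OPM2 against OCI-MY5 kept its direction at only 0.0034.

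**Figure D1:**
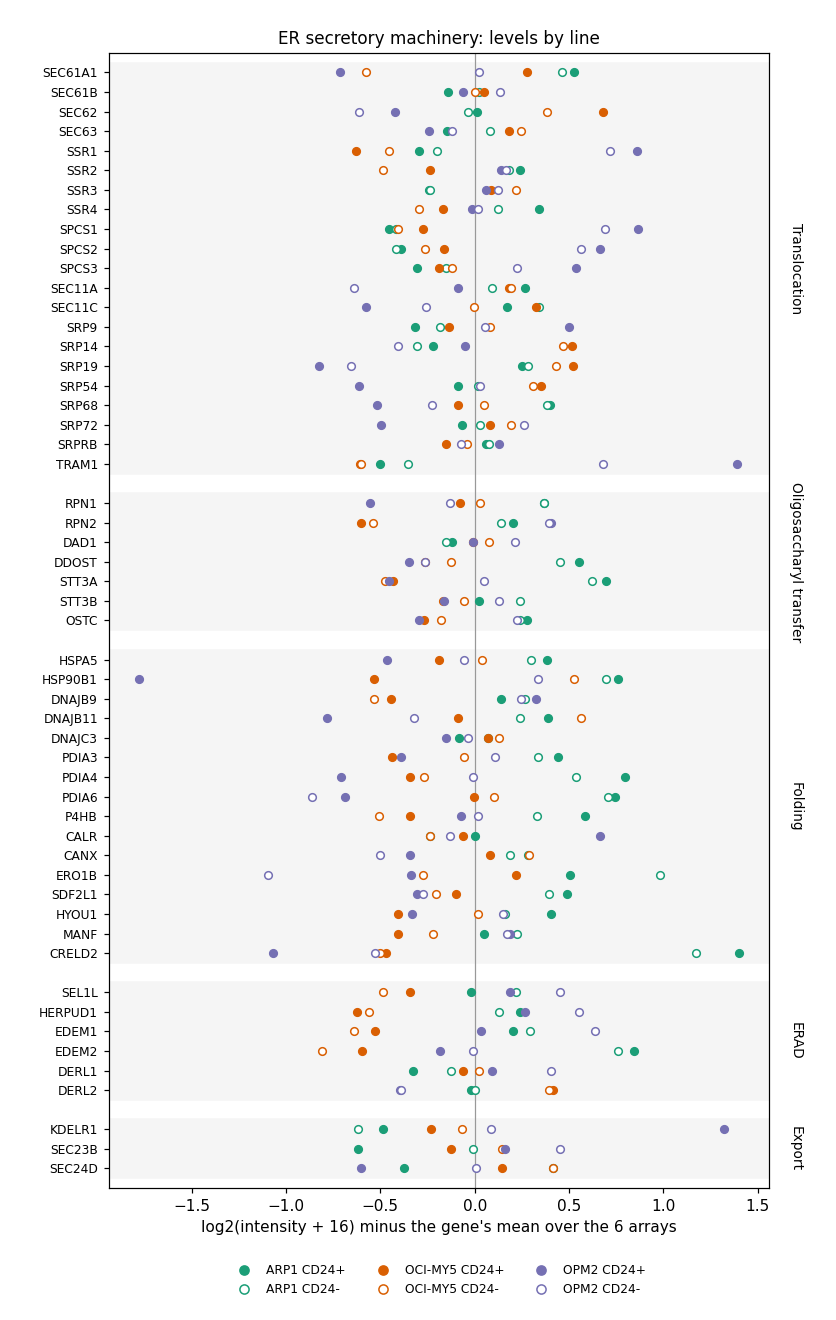
Each row is 1 of the 53 members, grouped by step, and each point 1 array; the horizontal axis is log2(intensity + 16) minus the gene's mean over the 6 arrays, colour is the line, and filled points are CD24+ and open points CD24- arrays. Line took a median 84.4% of a member's sum of squares and fraction 3.79%, but in the 3 export genes these were 59.1% and 35.4%. In the folding step 12 of 16 genes have their highest mean in ARP1.

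The 4 members called higher in OPM2 than in both other lines were SSR1, SPCS1, SPCS2 and TRAM1. All belong to translocation and signal peptide cleavage, the largest step, with 21 of the 53 members. Members called higher in OPM2 were 7.55% against ARP1 and 13.2% against OCI-MY5, near the 10.1% and 11.4% of all tested genes. The share of all genes called higher in both contrasts was not counted, and differences between steps were not tested. In the values that follow, each line is given as its CD24+ and then its CD24- array. SPCS1, a small subunit of the signal peptidase complex, read 19603 and 20163 in ARP1, 22218 and 20299.6 in OCI-MY5 and 49031 and 43346 in OPM2. Its partner SPCS2 read 13898 and 13666 in ARP1, 16307 and 15212 in OCI-MY5 and 28922 and 26983 in OPM2. In both genes the 2 OPM2 arrays lay above the other 4 arrays with no overlap. SPCS1 was higher in OPM2 than in ARP1 by 1.21 ± 0.17 (adjusted p = 0.0102) and than in OCI-MY5 by 1.12 ± 0.17 (adjusted p = 0.0115). In line contrasts, here and below, ± gives the SE, pooled over the 3 lines with 2 arrays per line, 1 of each fraction. For SPCS2 the differences were 1.02 ± 0.17 (adjusted p = 0.014) and 0.83 ± 0.17 (adjusted p = 0.0233), the second falling to 0.51 (adjusted p = 0.106) as the mean of all its probe sets. The remaining signal peptidase subunits did not pass the test. SPCS3 read 7125 and 7931 in ARP1, 7728 and 8098 in OCI-MY5 and 12774 and 10289 in OPM2, 0.61 above ARP1 (adjusted p = 0.077), while the catalytic subunits SEC11A and SEC11C had their lowest line means in OPM2, at −0.54 and −0.67 against ARP1 (adjusted p = 0.161 and 0.0822).

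TRAM1, a membrane protein beside the channel that aids the insertion of some signal sequences, read 24309.9 and 26919 in ARP1, 22581 and 22697 in OCI-MY5 and 90225 and 55226 in OPM2. Both OPM2 arrays lay above the rest, and the CD24+ array, the one with the bright spike-ins, was the higher of them. OPM2 exceeded ARP1 by 1.46 ± 0.28 (adjusted p = 0.0203) and OCI-MY5 by 1.64 ± 0.28 (adjusted p = 0.0141). SSR1, the alpha subunit of the translocon-associated TRAP complex, read 8509 and 9098 in ARP1, 6752 and 7607 in OCI-MY5 and 18919 and 17161 in OPM2. Here too the OPM2 arrays stood above all others, by 1.03 ± 0.18 against ARP1 (adjusted p = 0.0158) and 1.33 ± 0.18 against OCI-MY5 (adjusted p = 0.00749). As the mean of all its probe sets, the difference from ARP1 was 0.74 (adjusted p = 0.0642). The other TRAP subunits SSR2, SSR3 and SSR4 did not pass the test in any line contrast, with OPM2 minus ARP1 at −0.055, 0.33 and −0.23. The difference between the subunits was not tested.

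The signal recognition particle (SRP), which brings ribosomes with a nascent signal sequence to the ER, went the other way in 2 of its 6 protein members. SRP19, which binds the particle's RNA during assembly, read 9753 and 9958 in ARP1, 11776 and 11059.7 in OCI-MY5 and 4626 and 5194 in OPM2. The 2 OPM2 arrays were the lowest, by −1.01 ± 0.17 against ARP1 (adjusted p = 0.0155) and −1.22 ± 0.17 against OCI-MY5 (adjusted p = 0.00872). SRP68, which forms a dimer with SRP72 in the particle, was lower in OPM2 than in ARP1 by a difference of −0.76 ± 0.19 (adjusted p = 0.041), and without the OPM2 CD24+ array this was −0.62 (adjusted p = 0.0678). With the fraction as a term the adjusted p was 0.0622. SRP9, SRP14, SRP54 and SRP72 did not pass the test in any line contrast. SEC62, which serves the post-translational route through the channel, read 7358 and 7141 in ARP1, 11721 and 9537 in OCI-MY5 and 5443 and 4764 in OPM2. OPM2 was lower than OCI-MY5 by a difference of −1.05 ± 0.19 (adjusted p = 0.0184), with ARP1 between them. The channel subunits SEC61A1 and SEC61B and the cofactor SEC63 were not called, and SEC61B ranged only from 21837 to 26379.8 over the 6 arrays.

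**Figure D2:**
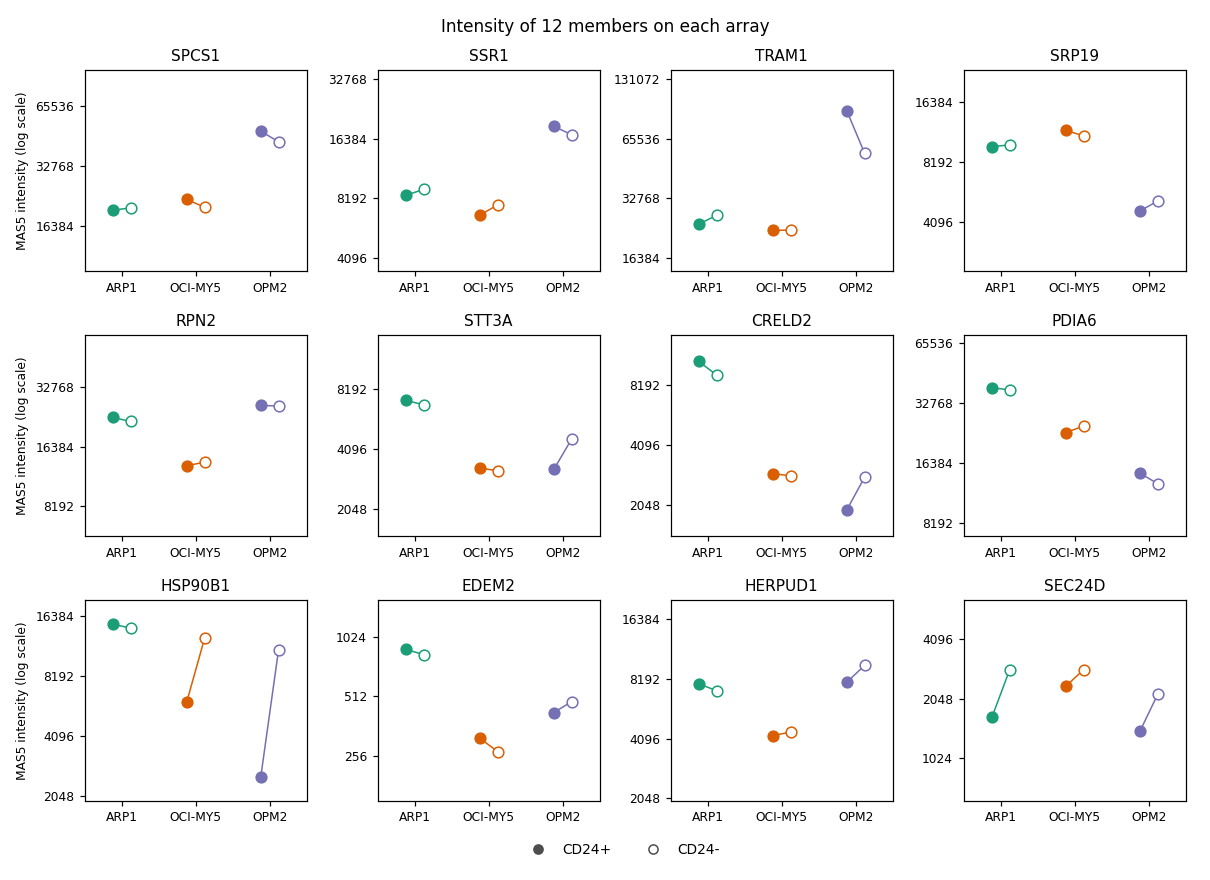
MAS5 intensity (log scale) of 12 members on each array, with lines on the horizontal axis, filled points for CD24+ and open points for CD24- arrays, and a thin line joining the 2 arrays of a line. SPCS1, SSR1 and TRAM1 are highest on both OPM2 arrays, and CRELD2 and EDEM2 on both ARP1 arrays.

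In oligosaccharyl transfer, 5 of 7 members had their highest mean in ARP1 (71.4%, against 32.4% of all tested genes), and 6 of 7 were higher in ARP1 than in OCI-MY5, none of them called in that contrast. STT3A, the catalytic subunit of the form of the enzyme that acts as the chain enters the ER, read 7202 and 6861 in ARP1, 3289 and 3190.4 in OCI-MY5 and 3242 and 4599 in OPM2. The ARP1 arrays were the highest and did not overlap the others. OPM2 was lower than ARP1 by a difference of −0.86 ± 0.22 (adjusted p = 0.0473), which was −0.61 (adjusted p = 0.0639) without the OPM2 CD24+ array and no longer called with the fraction as a term (adjusted p = 0.0736). DDOST, a structural subunit, read 10734 and 10012 in ARP1, 6101 and 6722 in OCI-MY5 and 5759.7 and 6096 in OPM2, and OPM2 minus ARP1 was −0.81 ± 0.17 (adjusted p = 0.0274, and 0.0533 with the fraction as a term). RPN2, another structural subunit, had another order. It read 22998 and 21944 in ARP1, 13133 and 13699 in OCI-MY5 and 26425 and 26248 in OPM2, with OCI-MY5 lowest and OPM2 above it by 0.97 ± 0.16 (adjusted p = 0.0138). STT3B, the catalytic subunit of the form that modifies sites missed by STT3A, showed no called line difference, and neither did RPN1, DAD1 or OSTC.

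Folding genes were mostly highest in ARP1, whereas OPM2 and OCI-MY5 had no common order. Of them, 15 of 16 were higher in ARP1 than in OCI-MY5 (93.8%, against 52.8% of all tested genes), and 13 of 16 were lower in OPM2 than in ARP1 (81.2%, against 51.6%). In OPM2 against OCI-MY5, 6 were higher and 10 lower, with 1 called each way, and 9 of 16 followed the full order ARP1, OCI-MY5, OPM2. As the highest line, 12 of 16 had their highest mean in ARP1 (75%, against 32.4% of all tested genes). ARP1 also had the lowest 3′ to 5′ ratios of ACTB, 2.63 and 2.47, against 7.54 to 27.1 on the other arrays. Line and ratio cannot be told apart here or for oligosaccharyl transfer above, and the part of the ratio was not tested. Of the 16, 4 passed the test as lower in OPM2 than in ARP1 and 1, CRELD2, as higher in ARP1 than in OCI-MY5. With the fraction as a term, ERO1B and SDF2L1 were no longer called against ARP1 (both adjusted p = 0.0599), nor was CRELD2 against OCI-MY5 (adjusted p = 0.0899). CRELD2, a stress-inducible ER protein with disulfide isomerase activity, had the widest line difference of the members. It read 10782 and 9207 in ARP1, 2934 and 2867 in OCI-MY5 and 1933 and 2819 in OPM2. The ARP1 arrays lay above the other 4 by a wide margin, −2.09 ± 0.24 for OPM2 minus ARP1 (adjusted p = 0.00564) and 1.77 ± 0.24 for ARP1 minus OCI-MY5 (adjusted p = 0.0389). PDIA6, a disulfide isomerase, read 39313 and 38210.1 in ARP1, 23338 and 25178 in OCI-MY5 and 14565 and 12906 in OPM2. Its 3 lines did not overlap, and OPM2 was lower than ARP1 by a difference of −1.50 ± 0.17 (adjusted p = 0.00554) and from OCI-MY5 by −0.82 ± 0.17 (adjusted p = 0.0263, and 0.0509 with the fraction as a term).

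ERO1B, an oxidase that recharges disulfide isomerases, read 357 and 503 in ARP1, 290.0 and 201 in OCI-MY5 and 192 and 107 in OPM2. The ARP1 arrays were highest without overlap, and OPM2 minus ARP1 was −1.46 ± 0.36 (adjusted p = 0.0397). SDF2L1, a cofactor that helps keep substrates soluble for the chaperone HSPA5, read 6090.1 and 5698 in ARP1, 4037 and 3758 in OCI-MY5 and 3499.7 and 3580.2 in OPM2, with ARP1 highest and OPM2 lower by a difference of −0.73 ± 0.17 (adjusted p = 0.0331). DNAJB9, an ER co-chaperone that also restrains the stress sensor IRE1, read 2151 and 2356 in ARP1, 1433 and 1344 in OCI-MY5 and 2454 and 2323 in OPM2. OCI-MY5 was lowest, and OPM2 exceeded OCI-MY5 by 0.78 ± 0.17 (adjusted p = 0.029). Its other bright probe sets gave only 0.0040 and 0.21, the mean of all its probe sets 0.33 (adjusted p = 0.48), and the call was also lost with the fraction as a term (adjusted p = 0.0551). The chaperones HSPA5, HSP90B1, CALR and CANX did not pass the test in any line contrast. HSPA5, the ER Hsp70, read 18932 and 17822 in ARP1, 12715 and 14884 in OCI-MY5 and 10498 and 13950.1 in OPM2, with OPM2 minus ARP1 at −0.60 (adjusted p = 0.103). The disulfide isomerase PDIA4 had OPM2 minus ARP1 at −1.03 ± 0.28 (adjusted p = 0.0549).

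Promoters of the folding genes are where the UPR is known to act, through a motif that the factors NF-Y and ATF6 or XBP1 read together, so the ERSE and ERSE-II matches of 7 members, 4 of them called between lines and 3 of them chaperones, are printed. The ER stress response element was searched as CCAAT, 9 free bases and CCACG, its variant ERSE-II as ATTGG, 1 free base and CCACG, and the UPR element as TGACGTGG, on both strands of the 250 bases before to 50 after each RefSeq start (GRCh38.p14). Where a gene had several starts, only its first window was read. Of the 53 members, 46 had a window. ERSE or ERSE-II occurred in 9 of them (19.6%), the 7 printed and CANX and HYOU1. Over all genes, at 1 window per gene, either occurred in 37 of 27305 windows (0.136%). The list was chosen for its known role in this pathway, so the gap between these shares is a description and no test. ERSE alone was found in 6 members (13% against 0.0806%), ERSE-II in 3 (6.52% against 0.0549%), and the UPR element in 3 (HYOU1, SEC62 and SRP19, 6.52% against 0.795%), which in HYOU1 overlaps an ERSE-II match. By step, ERSE or ERSE-II was in 8 of 15 folding windows (53.3%), in 1 of 5 of ERAD (HERPUD1), and in 0 of 19 of translocation, 0 of 5 of oligosaccharyl transfer and 0 of 2 of export. Each printed stretch of a window runs 5′ to 3′ on the gene's own strand, and the capitals mark the whole match, including its free bases; where the match lies on the opposite strand it reads as its reverse complement.
HSPA5 (ERSE, chr9:125241371-125241429, minus strand): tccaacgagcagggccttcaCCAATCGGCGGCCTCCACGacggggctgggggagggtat
HSP90B1 (ERSE, chr12:103930196-103930254, plus strand): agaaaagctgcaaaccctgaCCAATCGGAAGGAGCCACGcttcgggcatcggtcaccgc
HSP90B1 (ERSE, chr12:103930301-103930359, plus strand): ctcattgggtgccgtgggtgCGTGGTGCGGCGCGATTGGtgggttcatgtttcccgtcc
CALR (ERSE, chr19:12938364-12938422, plus strand): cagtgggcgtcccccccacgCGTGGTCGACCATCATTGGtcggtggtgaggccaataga
CRELD2 (ERSE, chr22:49918534-49918592, plus strand): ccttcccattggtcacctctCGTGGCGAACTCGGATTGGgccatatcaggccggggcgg
ERO1B (ERSE, chr1:236282163-236282208, minus strand): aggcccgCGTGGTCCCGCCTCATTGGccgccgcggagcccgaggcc
SDF2L1 (ERSE-II, chr22:21642094-21642144, plus strand): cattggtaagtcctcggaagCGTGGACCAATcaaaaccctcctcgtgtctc
HERPUD1 (ERSE-II, chr16:56932005-56932055, plus strand): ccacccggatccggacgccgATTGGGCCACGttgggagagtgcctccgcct

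Of the 9 members with a match, 7 had their highest mean in ARP1 and 2 in OPM2. Of the 37 with a window and no match, the counts for ARP1, OCI-MY5 and OPM2 were 14, 10 and 13. However, 8 of the 9 are folding genes, and 12 of 16 folding genes were highest in ARP1. Folding genes with a window and no match included DNAJB11, PDIA4, PDIA6 and P4HB, highest in ARP1, and DNAJB9, DNAJC3 and MANF, which were not. Motif and step are thus mixed here, and a link of the motif to a line was not tested. This is a description of letters in a window, and no binding was measured.

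**Figure D3:**
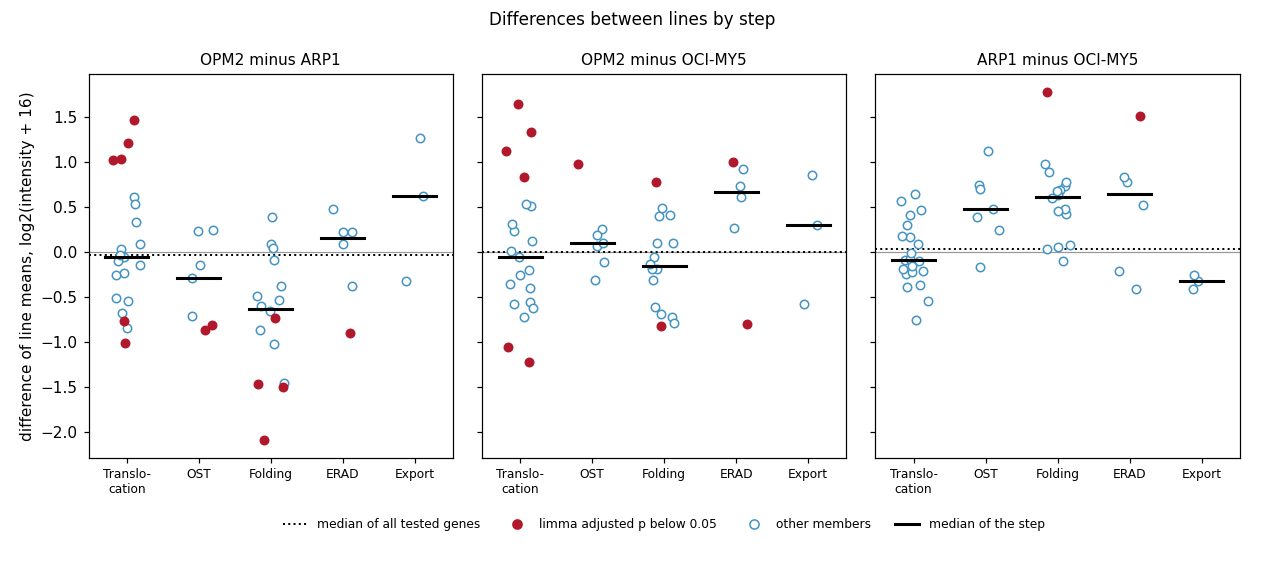
Points are members by step, the vertical axis is the difference of line means in log2(intensity + 16) (2 arrays per line), filled red points have a limma adjusted p under 0.05, black bars are step medians and the dotted line is the median of all tested genes. In OPM2 minus ARP1 the folding median lies at −0.63 and the ERAD median at 0.15.

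In ERAD, 4 of 6 members had their highest mean in OPM2 (66.7%, against 38.6% of all tested genes). The median of OPM2 minus OCI-MY5 was 0.67, and that of ARP1 minus OCI-MY5 was 0.65, close to the 0.61 of folding; differences between steps were not tested. HERPUD1, a stress-inducible membrane protein that organises the HRD1 ubiquitin ligase, read 7724 and 7137 in ARP1, 4240.1 and 4419.8 in OCI-MY5 and 7874 and 9577 in OPM2. OCI-MY5 was lowest, and OPM2 lay above it by 1.0 ± 0.19 (adjusted p = 0.0188). The mean of both probe sets of HERPUD1, of which the other is below the limit on dim genes, gave 0.0034 (adjusted p = 0.993), so the call rests on the bright one. EDEM2, which starts the mannose trimming that marks misfolded glycoproteins, read 883 and 832 in ARP1, 315 and 270.4 in OCI-MY5 and 425 and 482 in OPM2. The ARP1 arrays were highest, by 1.5 ± 0.18 against OCI-MY5 (adjusted p = 0.0345), and OPM2 minus ARP1 was −0.90 ± 0.18 (adjusted p = 0.025). Neither call was kept with the fraction as a term (adjusted p = 0.0821 and 0.05, the latter just over the threshold). DERL2, a component of the retrotranslocation channel, was highest in OCI-MY5 instead. It read 2353 and 2388 in ARP1, 3186 and 3139 in OCI-MY5 and 1809 and 1820.2 in OPM2, and OPM2 was lower than OCI-MY5 by a difference of −0.80 ± 0.16 (adjusted p = 0.0234). SEL1L, EDEM1 and DERL1 were not called. Export had 0 of 3 members called between lines; KDELR1, a KDEL receptor, read 4666 and 4257 in ARP1, 5577 and 6257 in OCI-MY5 and 16406 and 6951 in OPM2, with the OPM2 CD24+ array far above its partner.

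In 13 of the 26 calls the gene had another bright probe set. All of these had the sign of the call, but in only 9 of the 13 calls did each reach at least 50% of its size, and no test of agreement was made. There were 6 members on probe sets of the x_at type, which can bind related transcripts, among them RPN2, DDOST, HSP90B1 and CALR.

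Related genes outside the list were read from lists of UPR regulators, translocation, glycan assembly, folding, ERAD and export, with 99 of 103 tested. Of these, 8 were higher and 13 lower in OPM2 than in ARP1, 12 higher and 9 lower in OPM2 than in OCI-MY5, and 2 higher and 0 lower in ARP1 than in OCI-MY5. Those are 8.08% and 13.1%, 12.1% and 9.09%, and 2.02% and 0% of the 99, near or below the shares of all tested genes given above for each contrast, and 0 passed between fractions. Of 12 UPR regulators, 2 were higher and 0 lower in OPM2 than in ARP1, and 4 were higher and 0 lower than in OCI-MY5, shares of 16.7% and 33.3% against 10.1% and 11.4% of all tested genes called higher. XBP1, the UPR factor required for plasma cell secretion, read 13607 and 16697 in ARP1, 12726 and 17179.9 in OCI-MY5 and 26413 and 28605 in OPM2. Both OPM2 arrays were above the others, by 0.87 ± 0.23 over ARP1 (adjusted p = 0.0498) and 0.89 ± 0.23 over OCI-MY5 (adjusted p = 0.0449). As the mean of all its probe sets XBP1 was not called, at 0.34 (adjusted p = 0.366) and 0.11 (adjusted p = 0.767). The stress kinase EIF2AK3 (PERK) was higher in OPM2 by 1.20 ± 0.31 over ARP1 (adjusted p = 0.0474), and the protease MBTPS2, which releases ATF6, by 1.43 ± 0.26 over OCI-MY5 (adjusted p = 0.0184). ATF4, a translation-controlled stress factor, was the remaining called regulator, 0.75 ± 0.17 above OCI-MY5 (adjusted p = 0.0317). As means of all probe sets, EIF2AK3 and MBTPS2 were not called either, at 0.71 and 1.15 (adjusted p = 0.0838 and 0.0693). These probe sets do not separate spliced from unspliced XBP1 mRNA.

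Among the related export genes, KDELR3, a KDEL receptor, read 2051 and 2365 in ARP1, 546 and 495 in OCI-MY5 and 130.1 and 34.4 in OPM2. It was highest in ARP1 and lowest in OPM2 with no overlap between lines, and 1 of the 2 OPM2 arrays, CD24-, lay below the limit on dim genes, an intensity of 65.9. With that array set to the limit, OPM2 was at least 20.3-fold lower than ARP1 and at least 4.90-fold lower than OCI-MY5, values that were not tested. On the intensities as read, both contrasts passed the test (adjusted p = 0.00469 and 0.0207). CAMLG, a receptor that inserts tail-anchored proteins, read 5086 and 5327 in ARP1, 6252 and 5743 in OCI-MY5 and 1120.5 and 1321 in OPM2, lower in OPM2 by differences of −2.08 ± 0.18 from ARP1 and −2.28 ± 0.18 from OCI-MY5 (adjusted p = 0.00276 and 0.00201). GET1, its partner in that insertion, was lower by −0.97 ± 0.18 from ARP1 (adjusted p = 0.0192), and the SRP receptor subunit SRPRA was higher than in OCI-MY5 by 1.59 ± 0.30 (adjusted p = 0.0203). In folding, SIL1, the exchange factor of HSPA5, was lower in OPM2 than in ARP1 by a difference of −1.55 ± 0.23 (adjusted p = 0.0117), the prolyl isomerase FKBP11 by −1.16 ± 0.17 (adjusted p = 0.0107) and ERP29 by −1.02 ± 0.23 (adjusted p = 0.0325). EDEM3, which trims mannose, was higher in OPM2 by 1.02 ± 0.19 (adjusted p = 0.0203), whereas DERL3 and UBE2G2 were lower, at −1.12 ± 0.20 and −1.0 ± 0.21 (adjusted p = 0.017 and 0.0254). COPA, a COPI coat subunit, was higher in OPM2 than in ARP1 by 0.99 ± 0.19 (adjusted p = 0.0229), and the glucosidase subunit GANAB and the glucosyltransferase ALG6 by 1.07 ± 0.23 and 1.24 ± 0.22 (adjusted p = 0.0283 and 0.0163). ALG9 and COPE were called against OCI-MY5, at 1.14 ± 0.19 and 0.96 ± 0.26 (adjusted p = 0.0146 and 0.0496). As means of all probe sets, OPM2 minus ARP1 was no longer called for GANAB, EDEM3, DERL3 and UBE2G2 (adjusted p = 0.211, 0.132, 0.163 and 0.0723), nor OPM2 minus OCI-MY5 for COPE (adjusted p = 0.304). With the fraction as a term, EIF2AK3, ERP29 and COPE lost these calls (adjusted p = 0.0794, 0.0599 and 0.0644). Some calls on the related genes named by the rule were lost without the OPM2 CD24+ array. Keeping the others is no check of them, since OPM2 then rests on 1 array.

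CD24+ and CD24- cells were compared to ask whether the fractions differ in secretory machinery. None of the 53 members passed the test (0 of 12078 genes, 0%), and 0 members had an unadjusted p under 0.05 by limma, where 149 of all tested genes did. In that fit the differences between lines count as error, and line took a median 77.5% of a tested gene's sum of squares. Its lack of calls therefore says little about small differences between fractions. With the line as a block, 0 members passed and 1, SEC24D, had an unadjusted p under 0.05 (0.0329, adjusted 0.847), against 560 of all genes. The median difference over the members, CD24+ minus CD24-, was −0.05, against 0.03 over all tested genes, and by line it ran 0.02 (ARP1), −0.06 (OCI-MY5) and −0.12 (OPM2). CD24+ was lower in 24, 31 and 35 of the 53 members in those lines (45.3%, 58.5% and 66%), against 48.6%, 46% and 46.2% of all tested genes, so in ARP1 the share was near that of genes in general. The median sizes of the difference, 0.10, 0.11 and 0.29, were below those of all tested genes (0.20, 0.20 and 0.41). The members were brighter, however, with array medians of 12.7 to 13.3 on the log2 scale against 9.33 to 9.54. No comparison was made with genes of like brightness, so the part of brightness in these shares and sizes was not tested. Other comparisons of members with all tested genes, above and below, share this limit.

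CD24+ was higher in all 3 lines in 4 members, SEC62, SPCS2, SRP14 and CALR (7.55%, against 16.9% of all genes), and lower in all 3 in 8, SEC63, SSR3, SRP72, STT3B, DNAJC3, DERL1, SEC23B and SEC24D (15.1%, against 12.2%). Of these 12 members, 10 had another bright probe set, and in 0 of the 10 did every other bright probe set keep the sign in all 3 lines. With the arrays centred, the counts were 2 and 14, and those of all genes moved from 2042 and 1468 to 1493 and 1984. SEC24D, a COPII coat protein that selects cargo, read 1646 and 2859 in ARP1, 2366 and 2861 in OCI-MY5 and 1401 and 2148 in OPM2. CD24+ was below CD24- in each line, by −0.79 (ARP1), −0.27 (OCI-MY5) and −0.61 (OPM2), a mean of −0.56 ± 0.26 (SD, n = 3). The fractions overlapped across lines, and 1 of the other bright probe sets of SEC24D was higher in CD24+ in each line, so the direction depends on the probe set. SEC23B, its coat partner, read 1982 and 3030 in ARP1, 2793 and 3370.3 in OCI-MY5 and 3404 and 4173 in OPM2, a mean of −0.39 ± 0.19, and another bright probe set was higher in CD24+ in each line. Among related export genes, 7 of 23 were lower in CD24+ in all 3 lines and 0 higher, SEC23A among them at −0.42 ± 0.21.

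STT3B differed by −0.21 ± 0.092 and DERL1 by −0.20 ± 0.12, both below zero in 3 of 3 lines. The 2 other bright probe sets of DERL1 were above zero in ARP1, by 0.022 and 0.051, and 1 of them in OCI-MY5, by 0.018. CALR, a lectin chaperone, read 5321 and 4509.6 in ARP1, 5099 and 4518 in OCI-MY5 and 8438 and 4857 in OPM2, a mean of 0.40 ± 0.34 in which OPM2 contributed 0.79. Its other bright probe sets were below zero in ARP1, by −0.057 and −0.058, and 1 of them in OCI-MY5, by −0.085. SRP72 differed by −0.10, −0.11 and −0.76, so OPM2 carried most of it. DNAJC3, an HSPA5 co-chaperone, differed by −0.11 ± 0.05. SEC63 differed by −0.14 ± 0.082, which was 0.02 as the mean of all its probe sets. SRP14 differed by 0.16 ± 0.17, with 0.084 (ARP1), 0.045 (OCI-MY5) and 0.36 (OPM2), each above zero. It turned below zero without the OCI-MY5 CD24+ array or the OPM2 CD24- array. Those unpaired fits leave the fractions with different lines, so their values mix in the difference between lines.

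**Figure D4:**
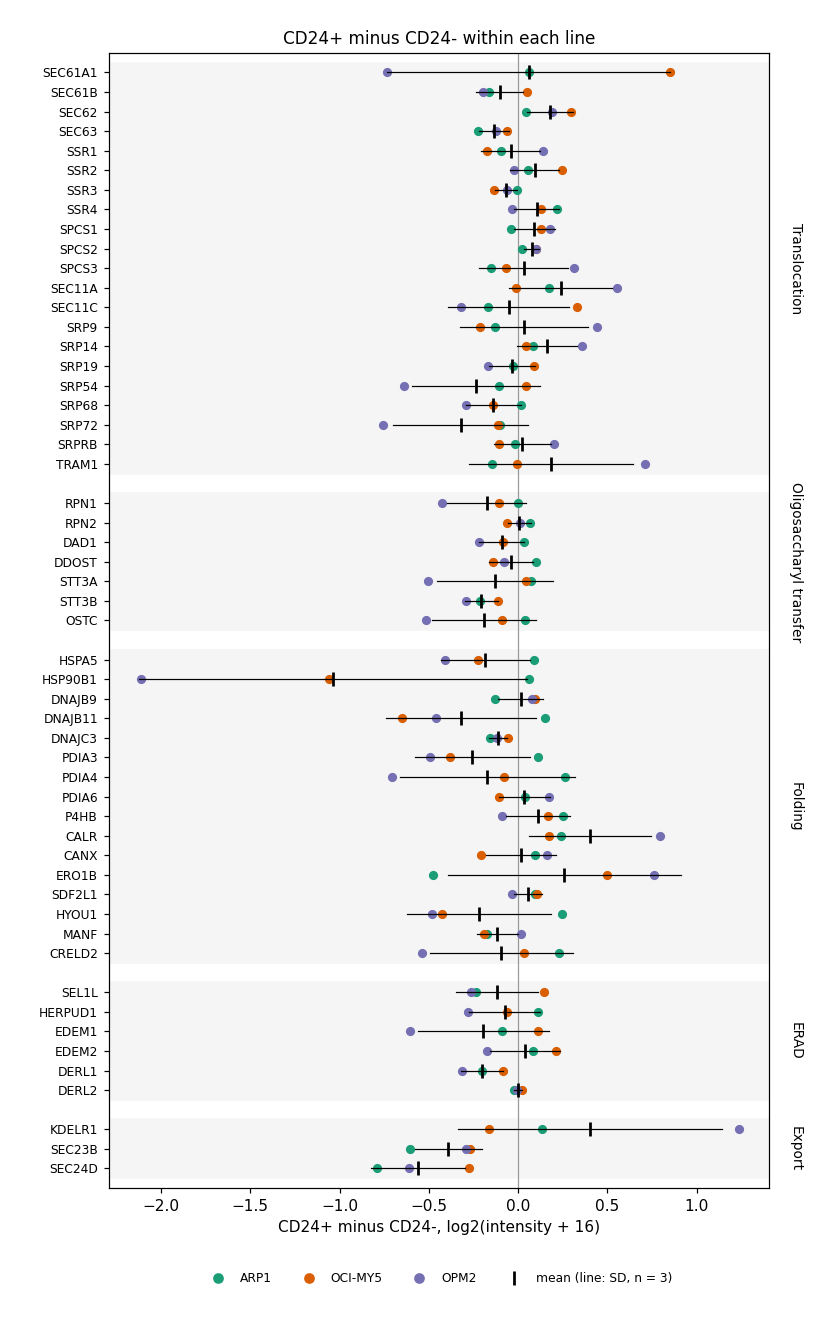
Coloured points give CD24+ minus CD24- in log2(intensity + 16) for each member in each of the 3 lines; the black tick is their mean and the black bar its SD (n = 3). The widest spread is in OPM2, with a median size of 0.29, and HSP90B1 there lies farthest out at −2.11.

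Within a line there is 1 array per fraction and no test, so a fold of 1.5 was used as the description. In ARP1, 0 members were at least 1.5-fold higher in CD24+ (6.99% of all genes) and 2 lower (SEC23B and SEC24D, 6.65%). In OCI-MY5, 1 was higher, SEC61A1 (10.1%), and 2 lower, HSP90B1 and DNAJB11 (5.32%). In OPM2, 4 were higher (TRAM1, CALR, ERO1B and KDELR1, 23.2%) and 7 lower (SEC61A1, SRP54, SRP72, HSP90B1, PDIA4, EDEM1 and SEC24D, 13%).

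HSP90B1, the ER Hsp90 known as GRP94, had the widest gap. It read 14956 and 14341 in ARP1, 6102 and 12709.9 in OCI-MY5 and 2559.6 and 11134 in OPM2, nearly level in ARP1 and lower in CD24+ in OCI-MY5 and OPM2, by −1.06 and −2.11. A second probe set of the gene differed by −0.20, −0.48 and 0.74 in ARP1, OCI-MY5 and OPM2, so in OPM2 the 2 probe sets disagreed in sign. SEC61A1, the pore of the channel, read 6069 and 5817 in ARP1, 5105 and 2823 in OCI-MY5 and 2566 and 4279 in OPM2. It was above in CD24+ by 0.85 in OCI-MY5 and below by −0.73 in OPM2. In these 2 lines it was lower on the array with the higher ACTB ratio, 23.2 for OCI-MY5 CD24- and 27.1 for OPM2 CD24+. In ARP1, with ratios of 2.63 and 2.47, it was nearly level, and the part of the ratio was not tested. KDELR1 was 1.24 higher in CD24+ of OPM2, and its other bright probe set was −0.26 there. EDEM1, which binds misfolded glycoproteins, read 1492 and 1588 in ARP1, 889.8 and 824 in OCI-MY5 and 1326 and 2022 in OPM2, and OSTC, a small subunit of the oligosaccharyltransferase, 14489 and 14099.8 in ARP1, 9915 and 10573 in OCI-MY5 and 9739 and 13958 in OPM2; both were lower on the CD24+ array of OPM2. All 6 ERAD members were lower in CD24+ in OPM2, by a median of −0.27, as were 6 of 7 of oligosaccharyl transfer, by −0.29. Of all tested genes, whose median intensity was below that of the members, 46.2% were lower there. This comparison holds the array with the bright spike-ins, which also had the highest 3′ to 5′ ratio of ACTB, 27.1 against 7.54 for OPM2 CD24-.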

How the data were processed

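Total RNA of 6 sorted fractions was measured on Affymetrix U133 Plus 2.0 arrays, and the deposited values are MAS5 intensities on a linear scale made with Affymetrix Expression Console 1.1, per the labels and the submitters' processing notes. Detection calls were not used here, and the number of arrays limits the precision. Of 54675 probe sets, 41091 had 1 gene symbol, 1801 several and 11721 none, 62 were controls, and 41037 were matched by Entrez ID to current symbols. For each gene the probe set with the highest mean log2 value was kept, and 12078 genes at or above the median of non-control probe sets, a mean log2 of 6.36, were tested. The moderated linear models of limma 3.58.1 (R 4.3.3), two-sided, were fitted to log2(intensity + 16), and p-values were adjusted by Benjamini-Hochberg over all tested genes with a threshold of 0.05. The fit was tested on simulated data, with planted changes far larger than the median differences between fractions. The simulated fractions held no differences between lines, so this was no check of the fraction test on these data.

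The members and lists were chosen with earlier results of these data known. Named by rule were, per step, up to 5 members called between lines by the largest contrast, up to 3 with 1 sign of CD24+ minus CD24- in all lines, the member with the widest gap between fractions and the brightest, and, of related genes, up to 3 called per list. SPCS2, SPCS3, SEC11A, SEC11C, SEC61B, SSR2 to SSR4, SRP68, HSPA5, PDIA4, ATF4 and SEC23A were added after their values were seen, as were members listed beside counts. Replicate numbers in the titles stand for the lines: over genes, deviations from the fraction means had r of 0.70, 0.71 and 0.77 for arrays sharing a line and −0.58 to 0.15 for other pairs, so the fractions pair by line, and a fit with the line as a block was run beside the unblocked one. Alternatives were the pseudocount, the limit on dim genes, quantile normalization, centring, all probe sets of a gene, an intensity trend, and leaving out arrays. A planned look at the ends of the member proteins was not run, since no protein table was used here.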

Additional observations from a re-analysis of the deposited data

How the results depend on the processing

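With the line as a replicate block, 0 members were called between fractions and the median member difference stayed at −0.05. The lines were compared with the fraction as a term instead, which kept 16 of 26 calls. The counts between lines depend on the settings. Against ARP1, OPM2 differed in 13 members, and in 3 with no filter on dim genes, 20 with the dim limit at the 75th percentile, 23 with an intensity trend in the prior variance and 7 with the fraction as a term. Against OCI-MY5 the 11 members became 3, 20 and 20 under the first 3 of these. Between ARP1 and OCI-MY5 the 2 became 0, 13, 14 and 0, and 1 with a pseudocount of 1. Leaving out 1 array at a time gave 0 to 20, 0 to 16 and 0 to 5 calls in the 3 contrasts, 0 to 0 between fractions, and a median difference of −0.15 to −0.020, the lowest without the ARP1 CD24+ array. Leaving out an array of a line leaves it with 1, which is assumed to vary like the others. Between fractions it leaves different lines on the 2 sides, so the median difference then mixes in line differences. Of the 26 calls, 0 were kept under every setting and 26 kept their direction, 26 were kept with quantile normalization, 22 with centred arrays and 20 with the mean of all probe sets. The cause of these changes was not tested, and settings that leave a difference as it is cannot turn its direction.

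Differences between fractions that changed sign were those of SEC63 (0.020), SEC24D (0.058) and SEC61A1 (−0.0031) as the mean of all probe sets. Leaving out 1 array leaves the fractions with different lines, so values from such fits mix in line differences. Leaving out a whole line does not. Leaving out arrays moved SRP14 between −0.055 (no OCI-MY5 CD24+ array) and 0.44, and it was −0.0014 without the OPM2 CD24- array. SEC61A1 ranged from −0.34 to 0.46 and was −0.064 without the OCI-MY5 CD24+ array, −0.21 without the OCI-MY5 CD24- array, −0.19 without the ARP1 CD24+ array and at its lowest without OCI-MY5. EDEM1 ranged from −0.56 to 0.076 and was above zero without the OPM2 CD24- array, the OCI-MY5 CD24+ array (0.023) or OPM2 (0.010). KDELR1 ranged from −0.16 without the OPM2 CD24+ array to 0.75, and was −0.017 without OPM2. With 1 array per fraction and line, a difference within 1 line has no replicate check.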
